A study of Mus musculus with 6 samples.

Results

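The mRNAs of 10 enzymes of glucose use were followed in the spleens of garlic-fed and control mice, namely Hk1, Hk2, Gpi1, Pfkl, Aldoa, Tpi1, Pklr and Pkm of glycolysis and G6pdx and Pgd of the pentose phosphate pathway. Each was taken with every probe set that the array annotation assigns to that gene alone, which gave 22 probe sets of 8 genes among 45037 probe sets of the array. No probe set was named for Gpi1 or G6pdx, and these 2 genes were not analysed here. One further probe set was named for Hk1 together with the ribosomal protein gene Rpl17 and its pseudogenes, and it was left out. The mice were male C57BL/6J, 8 weeks old at the start, and were fed for 15 weeks a casein, sucrose and cornstarch diet that contained L-cysteine in both groups, with 4% lyophilized raw garlic powder in the garlic group (3 mice) or 4% cellulose in the control group (3 mice). Whole-spleen RNA of each mouse was read on 1 Affymetrix mouse array, where a probe set is a group of short oligonucleotides against an mRNA and its signal is the brightness of the bound labeled RNA. Precision is limited by the number of arrays.

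Glycolysis splits glucose into pyruvate and yields ATP, and the pentose phosphate pathway branches off it to make NADPH, which keeps glutathione reduced. Mature red blood cells (RBCs) have no mitochondria, so glycolysis is their source of ATP and the pentose phosphate pathway their main source of NADPH. Inherited defects of these enzymes, above all of glucose-6-phosphate dehydrogenase and of red cell pyruvate kinase, shorten the life of RBCs. Some steps are served by separate genes. Pyruvate kinase of RBCs is the R form of Pklr, whose L form is made in the liver, while Pkm makes the pyruvate kinase of most other cells. Hexokinase of RBCs comes from Hk1, which is also widely expressed, while Hk2 is the hexokinase known for muscle, fat and activated or tumor cells. The spleen of a mouse holds lymphocytes, macrophages and, in its red pulp, developing red cells, so that a whole-spleen signal mixes all of them.

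The start regions of both pyruvate kinase genes are shown because this pair carries the comparison of a red cell form with a general form. All 10 genes were matched by symbol to RefSeq promoter windows (GRCm38.p6), with 16 windows in all, and the 250 bases before each start were read. Capitals mark the letters AGATAA or TGATAA, a core bound by GATA factors, and CCNCNCCC, a core of Klf1-type CACCC boxes, on either strand.
Pklr, upstream start, chr3:89135892-89136141, plus strand: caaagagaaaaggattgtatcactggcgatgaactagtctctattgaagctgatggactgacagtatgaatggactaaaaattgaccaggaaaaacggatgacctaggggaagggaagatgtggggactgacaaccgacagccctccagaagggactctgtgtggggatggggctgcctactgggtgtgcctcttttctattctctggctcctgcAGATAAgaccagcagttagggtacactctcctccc
Pklr, downstream start, chr3:89136373-89136622, plus strand: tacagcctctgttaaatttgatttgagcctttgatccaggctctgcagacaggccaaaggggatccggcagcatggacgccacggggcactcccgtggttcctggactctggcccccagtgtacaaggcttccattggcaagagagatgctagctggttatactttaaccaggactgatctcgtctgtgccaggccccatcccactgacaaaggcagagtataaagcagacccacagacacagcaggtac
Pkm, upstream start, chr9:59656326-59656575, plus strand: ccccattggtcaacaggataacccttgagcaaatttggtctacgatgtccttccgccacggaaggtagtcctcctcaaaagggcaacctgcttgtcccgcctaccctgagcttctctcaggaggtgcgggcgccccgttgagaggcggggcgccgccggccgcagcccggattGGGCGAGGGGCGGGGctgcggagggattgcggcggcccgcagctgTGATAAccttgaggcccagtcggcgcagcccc
In the Pklr gene the R form is known to start upstream of the L form, although the table does not say to which form a window belongs. The GATA core stood once before the upstream Pklr start, 35 bases before it, and once before the upstream Pkm start, 32 bases before it, and it was not among the letters before the downstream start of either gene. The downstream Pkm window, chr9:59656977-59657226, held 11 matches of CCNCNCCC, each overlapping another, and is not printed. Of the 16 windows, 3 held a GATA core, those of Pklr, Pkm and Aldoa, against 16.6% of all 32851 windows of the same length. CCNCNCCC stood in 12 of the 16 windows, against 45.9% of all windows, and in neither Pklr window. For Gpi1, Tpi1 and G6pdx the only match was GGGCGGGG. In the downstream Aldoa windows, which overlap each other, the matches were runs of G alone. These matches describe letters and show no binding.

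By their brightest probe sets, the signals of Pklr and Hk1 were higher in every garlic-fed mouse than in every control mouse. The signals of the general pyruvate kinase gene Pkm overlapped. None of these differences passed the adjusted threshold, a Benjamini-Hochberg adjusted p under 0.05 in limma. Pklr, read by its brightest probe set 1421258_a_at, had signals of 182, 241 and 332 in garlic-fed mice 1, 2 and 3, against 121, 168 and 143 in control mice 1, 2 and 3. The means were 252 ± 75.7 in garlic-fed mice and 144 ± 23.4 in control mice (SD, n = 3 each), a 1.71-fold difference (log2 fold change 0.78 with a standard error, SE, of 0.25, limma adjusted p = 0.270). A second probe set of Pklr, 1438711_at, gave 198, 253 and 306 in garlic-fed mice, against 98.3, 140 and 132 in control mice. Its difference was 2.03-fold (log2 fold change 1.02, SE 0.23, adjusted p = 0.125), and both probe sets placed the 3 garlic-fed mice in the same order, with mouse 3 highest. The third, 1421259_at, was dim, with signals of 22, 109 and 58.8 in garlic-fed mice against 12.6, 27.8 and 66.3 in control mice. It overlapped between the groups and was dimmer than the filter allows, so it was not tested. Its signal was highest in garlic-fed mouse 2 and control mouse 3, the mice with the highest summed signal of 7 liver marker genes in each group, which was 1079, 10417 and 1577 in garlic-fed mice against 2689, 1157 and 8302.5 in control mice. The part of liver mRNA in Pklr was not tested. In whole tissue, more cells of a type and more mRNA per cell cannot be told apart.

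Hk1, whose product puts the first phosphate on glucose, had signals of 2282, 2342 and 2893 in garlic-fed mice, against 1623, 1902 and 1786 in control mice, by its brightest probe set 1437974_a_at. The difference was 1.41-fold (log2 fold change 0.50, SE 0.12, adjusted p = 0.133 from limma), with a 95% interval of 0.24 to 0.75. The groups did not overlap. Its second probe set, 1420901_a_at, gave 1114, 1032 and 2043 in garlic-fed mice against 677, 969 and 1003 in control mice (log2 fold change 0.61, SE 0.25, adjusted p = 0.403). Here garlic-fed mouse 3 stood far above the other mice, and without it the log2 fold change was 0.30.

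Hk2, another hexokinase gene, and Pkm, the general pyruvate kinase gene, did not show this separation. Hk2 had signals of 669, 539 and 533 in garlic-fed mice, against 856, 678 and 622 in control mice, so that garlic-fed mouse 1 lay within the control range. Its log2 fold change was -0.30 (SE 0.16, adjusted p = 0.518 from limma), with a 95% interval of -0.65 to 0.04. The value was -0.17 without control mouse 1 and -0.12 without the arrays with the most pancreatic signal. Pkm had signals of 2918, 3175 and 2808 in garlic-fed mice, against 2987, 3154 and 3131 in control mice. Its log2 fold change was -0.06 (SE 0.087, adjusted p = 0.860 from limma). The 95% interval of -0.25 to 0.13 did not reach the 0.78 measured for Pklr, whose own interval was wide, at 0.22 to 1.33.

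**Figure D1:**
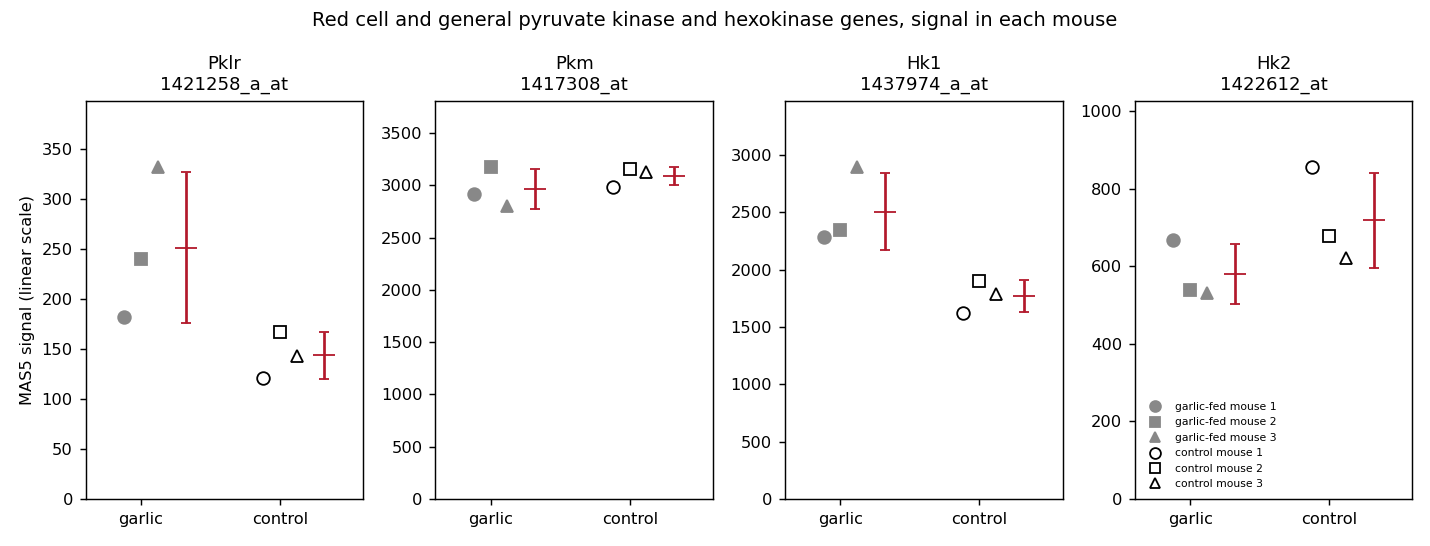
MAS5 signal (linear scale from 0) of the brightest probe set of Pklr, Pkm, Hk1 and Hk2 in each mouse, garlic-fed mice in gray and control mice as open symbols, with the mean and SD of each group in red (n = 3 each). Garlic-fed mice lie at 182 to 332 for Pklr and 2282 to 2893 for Hk1, above the control mice at 121 to 168 and 1623 to 1902, while the groups overlap for Pkm and Hk2.

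Pklr and Pkm pair a red cell form with a general one. In the pair of Hk1 and Hk2, the Hk1 of RBCs is itself widely expressed. Whether the genes of a pair differed in their response was tested within each array, as the log2 signal of one minus that of the other. Such a difference compares changes between the groups and not the levels of both mRNAs, since probe sets bind unequally. By the brightest probe sets, Pklr minus Pkm was -4.00, -3.72 and -3.08 in garlic-fed mice, against -4.63, -4.23 and -4.45 in control mice. The groups did not overlap, and the changes differed by 0.84 on the log2 scale (SE 0.30). Hk1 minus Hk2 was 1.77, 2.12 and 2.44 in garlic-fed mice, against 0.92, 1.49 and 1.52 in control mice, a difference of the changes of 0.80 (SE 0.27). Each pair gave p = 0.1 in the exact two-sided permutation test over the 20 groupings of 3 mice against 3, which is the smallest p that this design allows, and 0.1 after adjustment over the 2 pairs. The design thus could not reach 0.05 for either pair.

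The other glycolytic genes were each read by 3 or 5 probe sets. Pfkl encodes the liver type of phosphofructokinase, the main control step of glycolysis. By its brightest probe set its signals were 1291, 1261 and 1079 in garlic-fed mice against 1160, 1096 and 1095 in control mice, a log2 fold change of 0.11 (95% interval -0.13 to 0.36, adjusted p = 0.777 from limma), and by the other 2 it was 0.02 and -0.40, the last lying between -0.70 (without control mouse 2) and -0.21 (without the arrays with the most pancreatic signal, 1 of each group). The groups overlapped in all 3. Aldoa encodes the aldolase that splits the 6-carbon sugar into 3-carbon pieces, and it is also the aldolase of RBCs. Its brightest probe set gave 6571, 6017 and 6380.0 in garlic-fed mice against 5958, 6464 and 6727 in control mice, and the log2 fold changes of its 5 probe sets lay between -0.19 and 0.05 (adjusted p between 0.621 and 0.973). All 5 carry the suffix _x_at, by which Affymetrix marks probe sets that can bind related sequences, and Aldoa overlapped between the groups in each.

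Tpi1 encodes triosephosphate isomerase, which turns 1 of these pieces into the other, and its probe sets gave different values. Probe set 1435659_a_at gave 1914, 1904 and 1935 in garlic-fed mice, against 2297, 2302 and 2359 in control mice. The groups were separated without overlap (log2 fold change -0.27, SE 0.085, adjusted p = 0.249 from limma). The brightest Tpi1 probe set, 1452927_x_at, had 2890, 3420 and 3348 in garlic-fed mice against 3123, 3168 and 3549 in control mice. Its log2 fold change of -0.03 and that of the remaining probe set, also -0.03, had intervals of -0.25 to 0.19 and -0.28 to 0.21, and both overlapped between the groups.

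Pgd encodes 6-phosphogluconate dehydrogenase, the second NADPH-forming enzyme of the pentose phosphate pathway. Its brightest probe set had signals of 2512, 2785 and 1690 in garlic-fed mice, against 2286, 2676 and 2586 in control mice. Garlic-fed mouse 3, the mouse with the highest Pklr and Hk1 signals, was here the lowest of all. The log2 fold change was -0.14 with all mice (SE 0.17, adjusted p = 0.825 from limma) and 0.075 without garlic-fed mouse 3, and its 4 probe sets lay between -0.14 and -0.03, with overlap in each. The brightest, 1436771_x_at, carries the suffix _x_at, as do 1437380_x_at and 1438627_x_at, in which mouse 3 was also lowest. In 1423706_a_at mouse 3 was the highest of the garlic-fed mice.

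**Figure D2:**
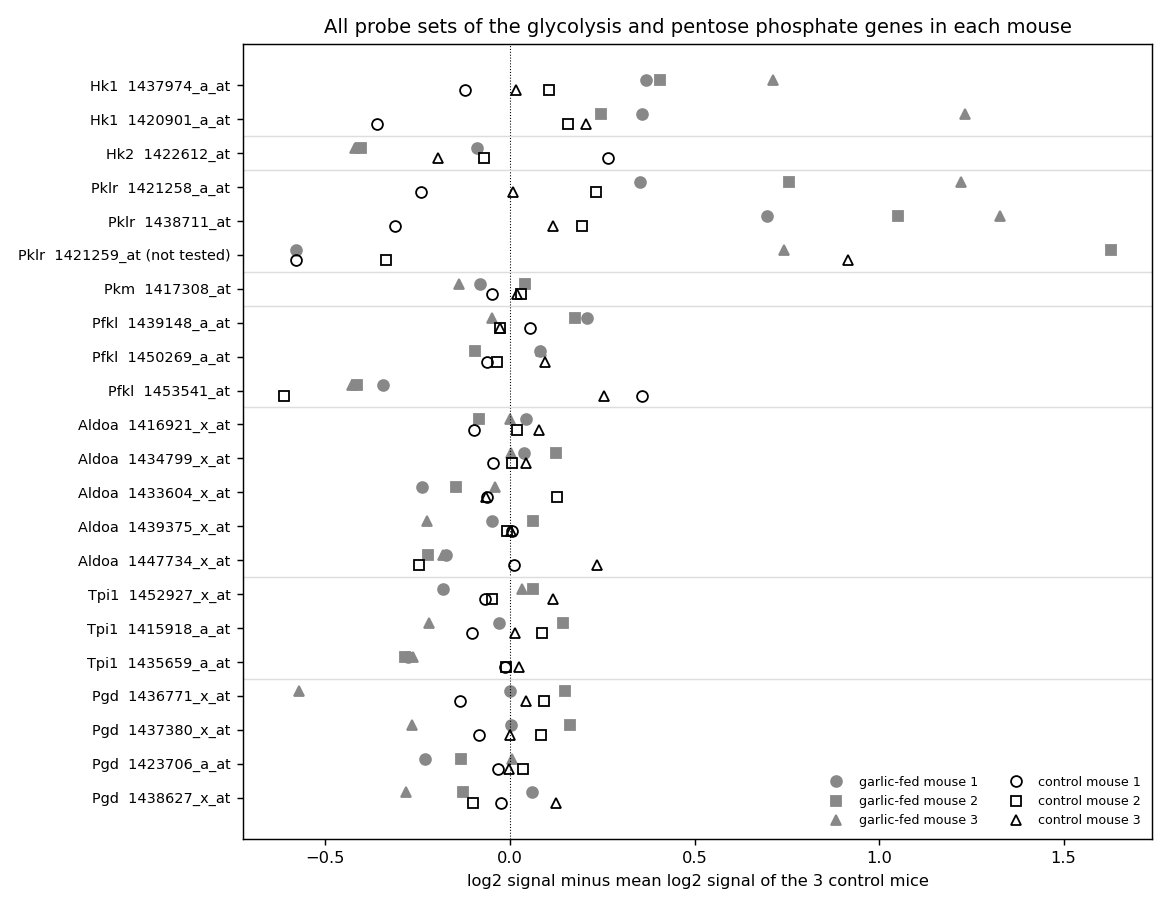
Log2 signal of each of the 22 probe sets in each mouse, less that of the control mice on average (x axis), with garlic-fed mice in gray above control mice as open symbols and signals under 23.5 set to that value. The garlic-fed mice stand to the right without overlap in both probe sets of Hk1 and 2 of Pklr, and to the left without overlap in 1 of Tpi1.

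Of the 22 probe sets, 21 passed the filter on dim probe sets and were tested. None passed the adjusted threshold in limma, where 0.237% of the 27022 probe sets tested did (0.226% as higher and 0.0111% as lower). At an unadjusted p under 0.05, 4 of the 21 were higher in garlic-fed mice, the 2 of Hk1 and 2 of Pklr, and 1 was lower, that of Tpi1, where 5.58% of all probe sets tested were higher and 5.44% lower (1507 and 1471). After centring the arrays on their medians these numbers were 2249 higher and 710 lower over all probe sets, and 4 and 0 among the 21. The methods' one-way analysis of variance on log2 signals gave 2 higher and 1 lower of the 21, beside 1201 and 1347 of the 27022. The groups did not overlap in 4 probe sets that were higher and 1 that was lower, against 7.52% and 9.29% of all probe sets tested. One probe set, 1438711_at of Pklr, met the study's criterion of more than 1.8-fold together with p under 0.05 before adjustment (from limma here), which 0.921% of all probe sets tested met in this direction and 0.596% in the other (249 higher and 161 lower, and 349 and 121 after median centring of the arrays). The median log2 fold change of the 21 was -0.03, as was that of all probe sets tested.

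Of the other enzymes of glycolysis, 14 of 18 listed had a probe set and 9 were tested, and none passed the adjusted threshold (1 higher and 1 lower by unadjusted p, in limma), where 0.343% of the genes tested passed it as higher and 0.00816% as lower (0.351% in all), and 6.89% and 6.24% had an unadjusted p under 0.05 as higher and as lower. Both belong to the phosphofructokinase step. Pfkm, the muscle type of phosphofructokinase, had signals of 638, 694 and 792 in garlic-fed mice, against 555, 614 and 568 in control mice (log2 fold change 0.29, SE 0.13, adjusted p = 0.453). Pfkp, the platelet type, had 1443, 1492 and 1491 in garlic-fed mice, against 1714, 1873 and 1629 in control mice (log2 fold change -0.23, SE 0.097, adjusted p = 0.413, and -0.45 on the log2 scale when its probe sets were averaged). In human RBCs phosphofructokinase is built of the liver and muscle types. Eno3, an enolase known from muscle, had a log2 fold change of -0.30 with overlapping groups (adjusted p = 0.528), which was -0.17 without garlic-fed mouse 2. The median of the 9 genes was -0.09, beside -0.03 over all genes tested.

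Among genes that feed, drain or control glycolysis, Slc16a1 rose in the garlic-fed spleens. It encodes MCT1, a carrier of lactate and pyruvate across the cell membrane, which RBCs use to release the lactate they make. Its signals were 6718, 7839 and 7528 in garlic-fed mice, against 4281, 4315 and 4820 in control mice, with no overlap. The means were 7362 ± 579 in garlic-fed mice and 4472 ± 302 in control mice (SD, n = 3 each), or 1.65-fold (log2 fold change 0.72, SE 0.089, limma adjusted p = 0.0190). The threshold was missed when control mouse 1 (adjusted p = 0.118) or 2 (0.108) was left out, when dim probe sets were not filtered (0.210), when limma used no variance trend (0.265), when the probe sets of a gene were averaged (0.131), when the arrays of most pancreatic signal were left out (0.163) and in the methods' analysis of variance (0.356 and 0.358). Its log2 fold change lay between 0.64 and 0.80 under the alternatives tried. The other 9 genes of this list that were tested did not pass, where 0.343% of all genes tested passed as higher and 0.00816% as lower. By unadjusted p under 0.05 in limma, 2 of the 10 tested were higher and 1 lower, against 6.89% and 6.24% of all genes tested. The groups did not overlap in 2 that were higher and 2 that were lower, against 7.52% and 9.29% of all probe sets tested. Slc16a3, which encodes the lactate carrier MCT4, was dim, with 102, 100 and 111 in garlic-fed mice against 76.3, 37.6 and 74.9 in control mice (log2 fold change 0.80, SE 0.34, adjusted p = 0.433, and 0.46 on the log2 scale without control mouse 2). Pdk1 encodes a kinase that inhibits pyruvate dehydrogenase. Its signals were 1637, 1076 and 1414 in garlic-fed mice against 2474, 2019 and 2052 in control mice, with no overlap (log2 fold change -0.68, SE 0.15, adjusted p = 0.125). It was -0.39 when the probe sets of the gene were averaged and -0.42 without the arrays with the most pancreatic signal, and its adjusted p was 0.0218 with the replicate number as a block. The median of the 10 genes tested was -0.10.

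Beside Pgd, 12 further genes of the pentose phosphate pathway were listed, among them those of its nonoxidative arm, which returns pentoses to glycolysis. All 12 had a probe set and 9 were tested, and none passed the adjusted threshold in limma. By unadjusted p under 0.05, 3 were higher and none lower, where 6.89% of all genes tested were higher and 6.24% lower. Tkt, which encodes transketolase, had 14263, 14657 and 10085 in garlic-fed mice against 10266, 9942 and 9195 in control mice (log2 fold change 0.39, SE 0.13, adjusted p = 0.293). Garlic-fed mice 1 and 2 stood above all control mice and mouse 3 within their range, and without mouse 3 the log2 fold change was 0.56 (adjusted p = 0.0217), while averaging the Tkt probe sets gave 0.18 (adjusted p = 0.523). Taldo1, which encodes transaldolase, had 8223, 8744 and 7042 in garlic-fed mice against 6563, 6685 and 7346 in control mice (log2 fold change 0.22, SE 0.095, adjusted p = 0.441), again with mouse 3 lowest of the garlic-fed mice. Rpe, which encodes an epimerase of pentose phosphates, had a log2 fold change of 0.25 with no overlap (adjusted p = 0.407), and 0.16 when its probe sets were averaged. The median of the 9 genes was 0.048. The summed signal of 6 marker genes of fat tissue, which borders the spleen, was 20095, 20952.5 and 9028 in garlic-fed mice 1, 2 and 3, against 10799, 11329 and 11349 in control mice. It was thus high in garlic-fed mice 1 and 2 and low in mouse 3, as were Tkt, Taldo1 and 3 of the 4 Pgd probe sets among the garlic-fed mice. These 3 Pgd probe sets and that of Tkt carry the suffix _x_at. The remaining Pgd probe set had 1591, 1702 and 1875 in garlic-fed mice 1, 2 and 3, with mouse 3 highest, against 1824, 1913 and 1862 in control mice. The ratio of the 3′ to the 5′ control probe set of Gapdh, a sign of RNA integrity, was 0.978, 0.999 and 0.769 in garlic-fed mice 1, 2 and 3, against 0.881, 0.821 and 0.801 in control mice, so that it too was highest in garlic-fed mice 1 and 2. The part of fat tissue and of RNA integrity in these values was not tested.

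**Figure D3:**
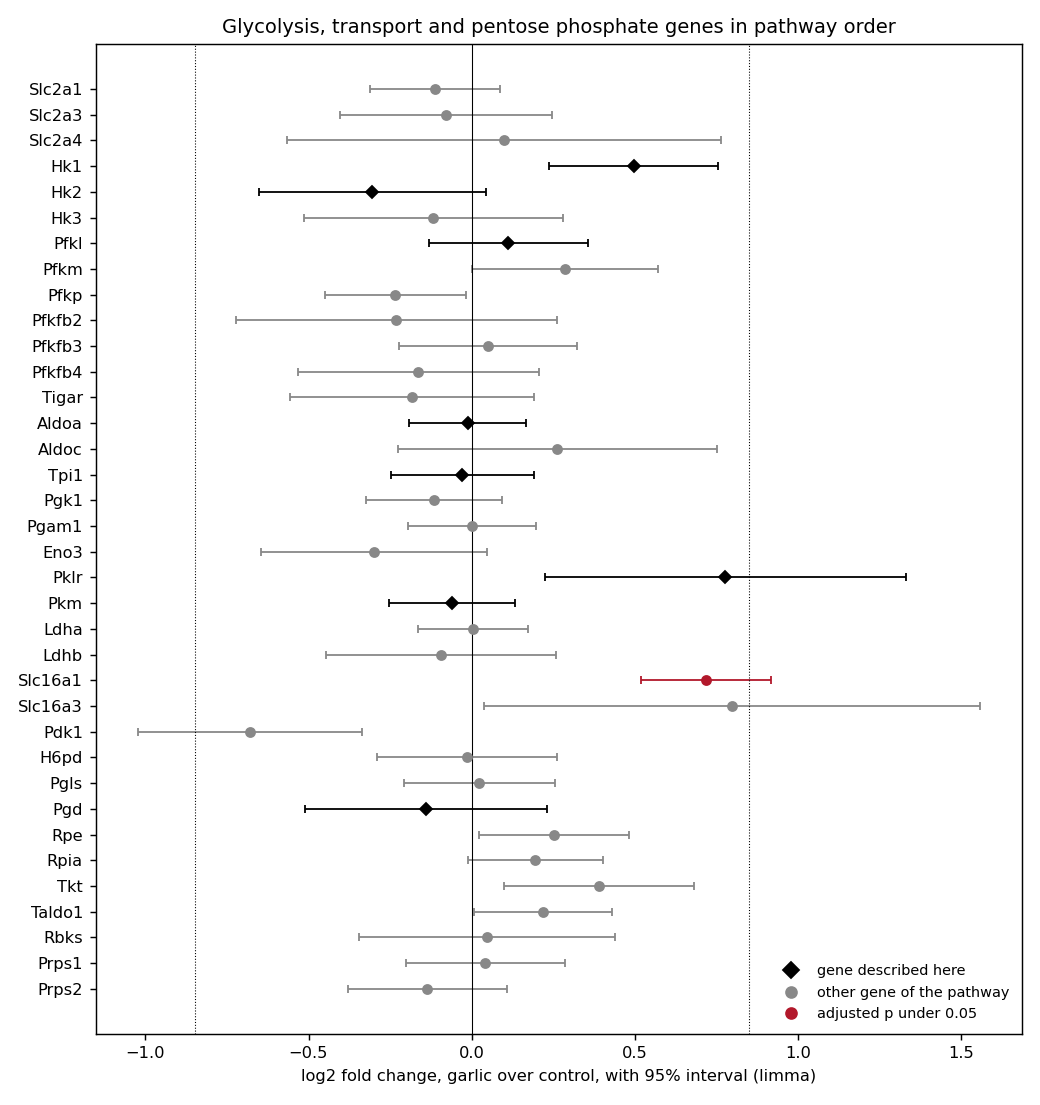
Log2 fold change, garlic-fed over control mice, with the 95% interval from limma for each gene tested, in the order of the pathways from glucose uptake at the top through pyruvate and lactate to the pentose phosphate pathway. Black diamonds are the genes described above, gray circles other genes of the pathways, and the red circle is Slc16a1 at 0.72, past the adjusted threshold. Dotted lines mark 1.8-fold.

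Beside Pklr and Hk1, the log2 fold changes of all 10 erythroid and all 9 dividing-cell marker genes read were positive. So were those of all 10 red pulp macrophage genes, all 5 fat genes tested and 7 of 8 neutrophil genes. Among the other lists, 3 of 7 megakaryocyte, 2 of 5 liver and 1 of 2 muscle genes tested were positive. None of the B cell, T cell or pancreatic genes was. Of 12 erythroid marker genes, 10 had a probe set. Of these, 2 passed the adjusted threshold as higher and 8 did not pass, and 9 were higher by unadjusted p, where 0.343% and 6.89% of all genes tested were, with a median log2 fold change of 0.98. Their summed signal was 53019 to 76169.6 in garlic-fed mice and 35118 to 44259.8 in control mice, and none of the 10 was under the floor on all arrays. Relative to the control mean, these 10 genes averaged 0.67, 0.80 and 1.32 on the log2 scale in garlic-fed mice 1, 2 and 3. By the brightest probe set it was 0.35, 0.76 and 1.22 for Pklr and 0.37, 0.41 and 0.71 for Hk1, so that all 3 were highest in mouse 3 and lowest in mouse 1. The dividing-cell markers (0.29, 0.51 and 0.75) and the neutrophil markers (0.12, 0.30 and 0.51) had the same order. The second Hk1 probe set was highest in mouse 3 but lowest in mouse 2 (0.36, 0.25 and 1.23). Slc4a1, the anion exchanger of the RBC membrane, and Alas2, the first enzyme of erythroid heme synthesis, were the brightest of the erythroid markers. Their log2 fold changes were 0.46 (adjusted p = 0.107 from limma) and 0.20 (adjusted p = 0.683). That of Alas2 was 0.040 without garlic-fed mouse 3 and 0.087 without control mouse 2. Of 10 genes of dividing cells, 9 had a probe set, 2 passed it as higher and 7 did not pass, 7 were higher by unadjusted p, with a median of 0.49 and a summed signal of 50693 to 63604 in garlic-fed mice and 38202 to 42796 in control mice. The brightest were Pcna, the sliding clamp of DNA replication (0.32, adjusted p = 0.147), and Mki67, a marker of proliferating cells (0.66, adjusted p = 0.0281). The markers that passed were Ank1 and Kel of the erythroid list and Ccna2 and Mki67 of the dividing-cell list. Without control mouse 1 or control mouse 2 no probe set of the array passed the threshold, these 4 markers included. The adjusted p of Mki67 was 0.0718 without garlic-fed mouse 2, 0.0626 without control mouse 3 and 0.254 without the arrays with the most pancreatic signal. It was between 0.273 and 0.408 without the filter, without the variance trend or in the methods' analysis of variance. The part of these cells in the values of Pklr and Hk1 was not tested.

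**Figure D4:**
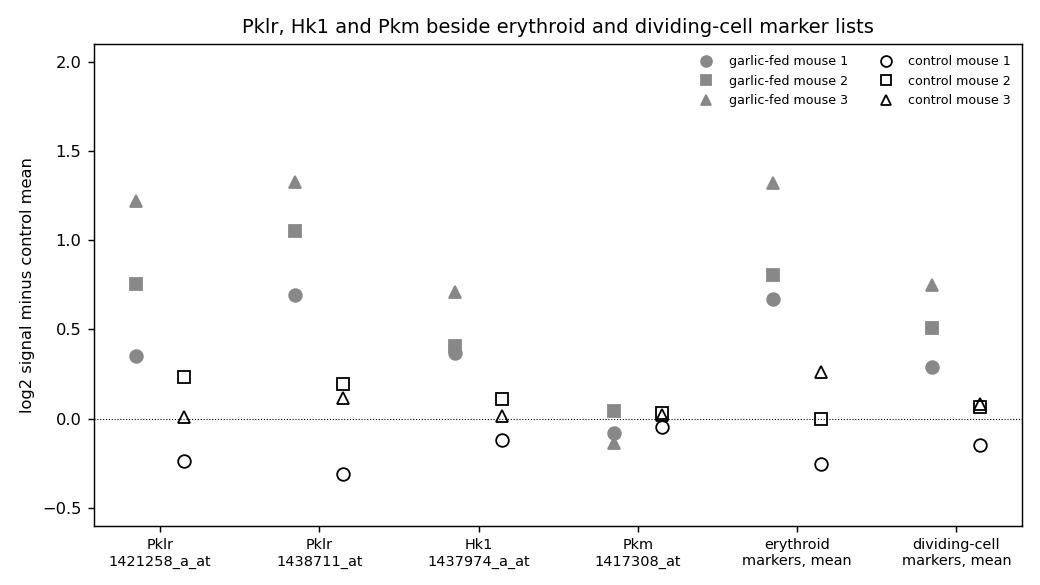
Log2 signal in each mouse minus the mean of the 3 control mice (y axis) for Pklr, Hk1 and Pkm, and the mean of the same quantity over 10 erythroid and 9 dividing-cell marker genes, with garlic-fed mice in gray left of control mice as open symbols. Garlic-fed mouse 3 is highest for Pklr (1.22 by the brightest probe set), Hk1 (0.71) and the erythroid markers (1.32), and lowest for Pkm (-0.14).

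Markers of spleen cells were present, with 7 of 8 B cell, 7 of 8 T cell and 10 of 10 red pulp macrophage genes read and all of these tested. No gene of these 3 lists passed the adjusted threshold in limma. By unadjusted p under 0.05, 3 B cell genes were lower and 4 macrophage genes higher, where 6.24% of all genes tested were lower and 6.89% higher. The median log2 fold changes of the B cell, T cell and macrophage lists were -0.16, -0.19 and 0.13. Genes of the pancreas, which also borders the spleen, varied between arrays and were lower in garlic-fed mice, with a median log2 fold change of -4.54. All 10 genes read were lower by unadjusted p under 0.05 in limma, against 6.24% of all genes tested. None passed the adjusted threshold, and the groups overlapped in each. Summed over 10 pancreatic genes, the signal was 2082 to 29779.8 in garlic-fed mice and 16126 to 121013 in control mice. With 1 array left out of each group, that with the most pancreatic signal, the log2 fold change was 0.67 (adjusted p = 0.957) for the brightest probe set of Pklr, 0.86 (adjusted p = 0.715) for the other and 0.48 (adjusted p = 0.635) for Hk1.

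The genes whose signals followed that of Pklr most closely over the 6 arrays, among 12261 other genes tested, were Cenpa, the histone variant of centromeres, Pcmt1, a methyltransferase of damaged proteins, Cop1, a ubiquitin ligase, Zmynd19 and Taf3, a subunit of a general transcription factor. Pearson correlations of log2 signal were 0.995 to 0.997. They describe the same 6 arrays in 2 groups, and the 5 were picked as the highest of all these genes. The log2 fold changes of the 5 genes lay between 0.12 (Taf3) and 0.53 (Zmynd19), with adjusted p between 0.271 and 0.820 from limma.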

How the data were processed

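Spleen RNA of 3 garlic-fed and 3 control mice was measured on 1 array each. The authors deposited 1 intensity value, a linear MAS5 signal, for each probe set and array. The software version is not given in the sources used here. The trimmed mean of every array, with 2% left out at each end, was 500.0, as read from the values, and the medians were 119.7 to 132.2. The 64 control probe sets were left out. In the annotation of the array 34945 probe sets carried 1 gene, 932 several and 9160 none. The 8 genes were matched to RefSeq by gene identifier. A floor of 23.5, the 20th percentile of all signals, was set before log2 was taken, and no test was made where the mean over arrays did not exceed 6.08, the 40th percentile. The test of garlic-fed against control mice was that of limma 3.58.1 (R 4.3.3) with a mean-variance trend. P-values were adjusted by Benjamini-Hochberg over all 27022 probe sets tested. The probe set of highest mean stood for its gene.

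The genes and lists were chosen with earlier results of these data known. Named are each of the 10 genes with every probe set, the genes of each pathway list past the adjusted threshold together with the 3 of smallest unadjusted p, the 2 brightest of the erythroid and dividing-cell marker lists, and the 5 genes most correlated with Pklr. The rule also covered the 2 brightest genes of the other marker lists, which are given by counts and sums instead. Lists of neutrophil, megakaryocyte, muscle and liver markers were read too, with median log2 fold changes of 0.33, -0.02, -0.08 and -0.41. The last was 0.54 without garlic-fed mouse 1 and -1.30 without garlic-fed mouse 2. No gene of these lists passed the adjusted threshold in limma. By unadjusted p under 0.05, 2 of 8 neutrophil genes were higher, where 6.89% of all genes tested were, and none of the others differed in either direction. Alternatives were quantile normalization, median centring, other floors and filters, no trend, the methods' ANOVA of the groups, a block on replicate number, each array left out in turn, the arrays of most pancreatic signal left out, and averaging over the probe sets of a gene. The procedure was tested on simulated data. Plots used matplotlib 3.10.9 (Python 3.11.15).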

Additional observations from a re-analysis of the deposited data

How the results depend on the processing

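None of the probe sets of the 8 genes passed the adjusted threshold under any alternative. Over all probe sets, 64 passed, and the count was 151 with median centring of each array, 11 with no filter, 0 with no trend of variance or with either form of the methods' ANOVA (by unadjusted p under 0.05, 1338 higher and 1474 lower with no trend, 1201 and 1347 for the ANOVA on log2 signals, 1136 and 1380 for that on linear signals), 295 with the replicate number as a block and 31 when each group lost its array of most pancreatic signal. Leaving out single arrays gave 0 to 111, with 0 without control mouse 1 or control mouse 2, 33 without control mouse 3 and 111 without garlic-fed mouse 1. Deviations of same-numbered mice from their group means correlated at 0.00064, -0.18 and 0.078. Garlic-fed mice 1 and 2 correlated best with control mice 2 and 1, and garlic-fed mouse 3 with control mouse 3. With 3 mice a group these values cannot settle whether the replicate numbers pair the mice. With the block, the adjusted p was 0.171 and 0.056 for the 2 Pklr probe sets tested, 0.072 and 0.156 for the 2 of Hk1 and 0.022 for Pdk1.

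Pklr and Hk1 kept their direction under the alternatives that tested them. Neither Pklr probe set passed the filter at the 60th percentile, so that alternative gave no value for Pklr. The log2 fold change of Pklr lay between 0.55 (without garlic-fed mouse 3) and 0.99 (without garlic-fed mouse 1) and its adjusted p between 0.152 and 0.957. Pklr minus Pkm lay between 0.58 and 1.04, and Hk1 minus Hk2 between 0.60 and 0.97.

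Small log2 fold changes changed sign. Median centring shifts the log2 fold changes of all signals above the floor by the same amount. The array medians were 119.7 to 128.8 in garlic-fed mice and 127.9 to 132.2 in control mice. The cause of the other sign changes was not tested. With median centring the log2 fold changes that changed sign were 0.065 and 0.0070 for Aldoa 1416921_x_at and 1439375_x_at, 0.045 for Pgd 1437380_x_at, 0.018 for Pkm, and 0.043 and 0.049 for Tpi1 1415918_a_at and 1452927_x_at. With single mice left out, the values ran from -0.062 (without control mouse 1) to 0.026 (without control mouse 3) for Aldoa 1416921_x_at, from -0.14 to 0.0059 (without garlic-fed mouse 3) for Aldoa 1439375_x_at, from -0.0076 (without control mouse 1) to 0.081 for Pfkl 1450269_a_at, from -0.29 to 0.075 (without garlic-fed mouse 3) for Pgd 1436771_x_at, from -0.13 to 0.083 (without garlic-fed mouse 3) for Pgd 1437380_x_at, from -0.12 to 0.058 (without garlic-fed mouse 3) for Tpi1 1415918_a_at and from -0.074 to 0.047 (without garlic-fed mouse 1) for Tpi1 1452927_x_at. Aldoa 1434799_x_at was -0.0039 without the arrays of the most pancreatic signal, and Pfkl -0.087 by the mean of its probe sets. The size of these differences is not resolved with 3 mice a group. Pklr, at signals of 121 to 332, had the largest SE (0.25) among the brightest probe sets of the 8 genes.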
